A study of Mus musculus with 6 samples.

Results

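The transcription factor NRF2 (gene Nfe2l2), its inhibitor KEAP1, the genes NRF2 is known to switch on, and the enzymes that remove peroxides and superoxide were followed through the first day after irradiation of the mouse submandibular salivary gland. The group was chosen by symbol from the deposited gene table and holds 35 genes of 24394, and all 35 were found. With a mean of at least 1 FPKM (fragments per kilobase of transcript, scaled to the depth of the library) over the 6 libraries, 34 of them passed the filter on low values. The exception was Slc7a11, which was at or near 0 in the control and 6 h glands.

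Glands were taken from wild-type C57BL/6 mice. The control group (time 0) carries no dose in its labels. The irradiated groups received 5 Gy and were collected 6 h or 24 h later. Each of the 3 groups had 2 libraries of total RNA. The labels state no age and do not say whether replicates are different animals or pools, so the tests measure only the spread between these 6 samples.

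NRF2 is held in the cytoplasm by KEAP1, which presents it for degradation. Oxidants and electrophiles modify KEAP1, NRF2 then accumulates, pairs with small MAF proteins and binds antioxidant response elements in its target genes. Because this control acts largely on protein stability, the Nfe2l2 messenger RNA is only an indirect reading of NRF2 activity. The targets make glutathione, supply NADPH and reduce peroxides through the thioredoxin and glutathione systems.

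The core of the antioxidant response element, TGACNNNGC, was searched on both strands of the RefSeq promoter windows (250 bases before to 50 bases after each gene start, GRCm38.p6). Of the 35 genes 29 had a window, and 9 of these held the core, or 31.0%, against 14.0% of all 27025 genes with a window. The full form TGACTCAGC, which is 1 of the sequences the core admits, was in the windows of Me1 and Prdx1, or 6.9% against 0.503% of all genes. Hmox1, Gclc, Gsr, Prdx6, Gsta4 and Sod3 had no window and were not searched. The 9 matches are shown to give the place of the core near genes whose levels follow. The core is in capitals (written as its reverse complement where it lies on the other strand) and the gene's own strand is read 5′ to 3′. Sequence outside the windows was not searched. A match is a sequence description and says nothing of binding in these glands.
Nfe2l2 (chr2:75704879-75704913, minus strand): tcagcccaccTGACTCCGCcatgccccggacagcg
Txnrd1 (chr10:82859098-82859138, plus strand): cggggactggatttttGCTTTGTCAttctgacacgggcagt
Srxn1 (chr2:152105536-152105573, plus strand): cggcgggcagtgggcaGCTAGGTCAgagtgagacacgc
Gclm (chr3:122245407-122245447, plus strand): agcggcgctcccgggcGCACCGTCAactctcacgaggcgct
G6pdx (chrX:74428913-74428953, minus strand): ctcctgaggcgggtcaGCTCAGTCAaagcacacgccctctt
Pgd (chr4:149166055-149166095, minus strand): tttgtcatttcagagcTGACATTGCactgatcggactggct
Me1 (chr9:86695896-86695936, minus strand): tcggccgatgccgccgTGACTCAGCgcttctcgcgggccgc
Prdx1 (chr4:116685450-116685490, plus strand): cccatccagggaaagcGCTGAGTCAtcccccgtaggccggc
Sod1 (chr16:90220690-90220730, plus strand): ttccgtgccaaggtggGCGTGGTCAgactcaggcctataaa

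The libraries differed in ways that bear on these genes. Values of the control and 6 h columns lay on steps of whole reads, which give library sizes of 11826000 to 12577000 reads, so that 1 read in a transcript of 2 kb was worth 0.0398 to 0.0423 FPKM. The 24 h columns had at most 6 digits and no such steps, so their depth is unknown and their values are of another form, although the processing notes name a single pipeline. This difference and the 24 h time point cannot be told apart in any comparison with the 24 h glands. Deposited FPKM summed to 677320 in 24 h replicate 1 and 1203218 in replicate 2, against 866233 to 900281 in the control and 6 h libraries. The gene Scgb1b27 made up 31.37% of the sum in 24 h replicate 2. Rescaling to equal FPKM sums therefore raises every gene in 24 h replicate 1 relative to replicate 2. The median log2 difference of all 11674 tested genes was 0.20 at 24 h against control with the deposited values and -0.03 after median-of-ratios scaling. Scaled differences are given beside most of the main deposited ones for the genes described singly. Short genes lay higher still at 24 h, with a median of 0.57 for genes of up to 600 bases and 0.16 for those of 3001 to 5000 bases. A further scale, median-of-ratios scaling within 7 length classes, was therefore added after the values were seen. The 6 listed genes of the submandibular granular convoluted tubule summed to 50276 and 39093 FPKM in the controls, 38213 and 39462 FPKM after 6 h, and, lowest, 31420 and 24208 FPKM after 24 h. The irradiation response gene Cdkn1a rose from 2.36 and 2.13 FPKM to 39.7 and 44.7 FPKM within 6 h. Parotid genes, from a neighbouring gland, summed to 23.7 FPKM in control replicate 1 and 24438 FPKM in replicate 2, and were likewise higher in replicate 2 at 6 h (1424 against 36949 FPKM) and at 24 h (7121 against 68095 FPKM). The 4 sublingual gland genes summed to only 8.22 FPKM in control replicate 1 and 327 FPKM in 24 h replicate 1, against 23222 to 41061 FPKM in the other 4 libraries. The part of these gland markers in the results that follow was not tested.

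The first comparison asked which of these genes differed 6 h after irradiation. Nfe2l2 was the only 1 of the 34 tested that passed (limma on log2(FPKM + 1), adjusted p under 0.05), and it roughly doubled. The inhibitor Keap1 and the genes NRF2 is known for did not pass. In all tested genes 1.01% were called at 6 h, and 0.694% as higher. Below that threshold the enzymes spread in both directions: of the 10 genes with an unadjusted p under 0.05, 3 were higher (Nfe2l2, Srxn1 and Prdx6) and 7 lower. The lower 7 were Gsta4, G6pdx, Txn2, Gpx1, Cat, Prdx5 and Sod2, and the corresponding shares of all tested genes were 6.28% higher and 8.49% lower. The median log2 difference was -0.04 in the 34 genes and -0.02 in all tested genes.

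Nfe2l2 (chr2:75675513-75704641, minus strand, GRCm38) was at 28.1 and 25.0 FPKM in the controls, 56.1 and 55.3 FPKM 6 h after irradiation and 48.2 and 41.7 FPKM after 24 h. Both irradiated groups lay above control, and the groups did not overlap. These values came from 855 and 731 reads in control and 1680 and 1718 reads at 6 h. The log2 difference was 1.04 ± 0.11 (SE) at 6 h, with an adjusted p of 0.0150 from limma, and 1.07 ± 0.11 with an adjusted p of 0.0135 after median-of-ratios scaling. Every fit with a library left out called fewer of all tested genes at 6 h than the full fit. Leaving out any single library kept the Nfe2l2 difference between 0.96 and 1.12 but ended the call. The adjusted p was then 0.0692 or 0.0714 without a control library (replicate 1 or 2), 0.173 or 0.115 without a 6 h library, and 0.0670 or 0.0557 without a 24 h library. With libraries rescaled to equal FPKM sums the difference stayed at 1.04, while the adjusted p was 0.871. That fit takes its spread from all 3 groups, the 24 h libraries with their unequal sums included. With only the 2 groups in the fit and the deposited values, the adjusted p was 0.0609. In bulk tissue, fewer cells of a type and less RNA per cell cannot be told apart, here or for any gene that follows.

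At 24 h Nfe2l2 still stood above control, by 0.74 ± 0.11 with the deposited values (adjusted p = 0.00607) and 0.47 ± 0.11 after scaling (adjusted p = 0.0344). This call held without each single library, with adjusted p between 0.0183 and 0.0474, and was lost with equal FPKM sums (0.560). Against 6 h it was lower by the scaled values (log2 difference -0.60 ± 0.11, adjusted p = 0.0144), while the deposited values gave -0.31 ± 0.11 and did not pass (adjusted p = 0.0882).

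Keap1 (chr9:21229730-21239361, minus strand) encodes the adaptor that presents NRF2 for degradation. It was at 10.4 and 8.12 FPKM in the controls, 9.20 and 8.68 FPKM 6 h after irradiation and 16.4 and 14.5 FPKM after 24 h. The 24 h libraries lay above all others. The log2 difference from control was -0.04 ± 0.14 at 6 h (adjusted p = 0.945) and 0.69 ± 0.14 at 24 h (adjusted p = 0.0169). After median-of-ratios scaling the 24 h difference was 0.43 ± 0.14 and did not pass (adjusted p = 0.0872), and the deposited call was also lost without control replicate 2 (0.0525) and without 24 h replicate 1 (0.121) or 2 (0.0679). The ratio of Nfe2l2 to Keap1 FPKM, which no scaling of whole libraries alters, was 2.69 and 3.08 in the controls, 6.10 and 6.37 after 6 h and 2.94 and 2.87 after 24 h. The 6 h libraries stood apart on this ratio, and the 24 h values fell inside the control range.

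**Figure D1:**
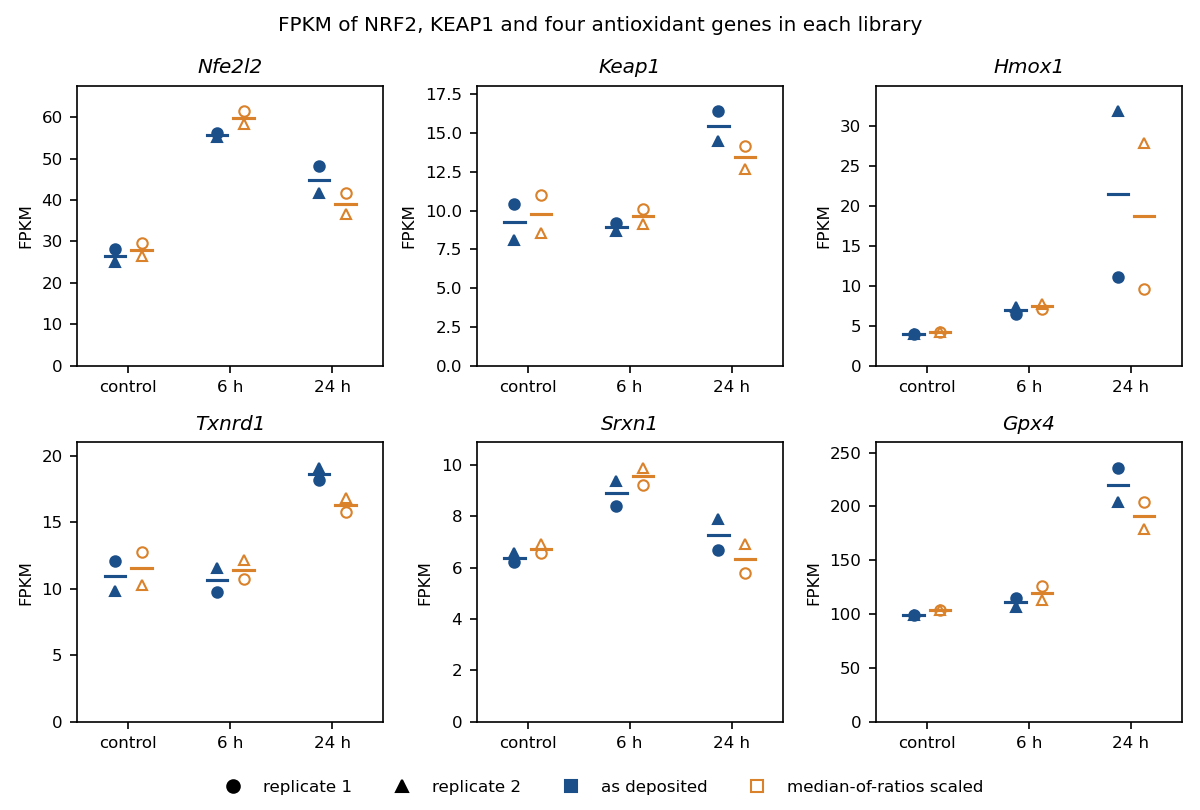
FPKM of Nfe2l2, Keap1, Hmox1, Txnrd1, Srxn1 and Gpx4 in each library (vertical axes, FPKM, starting at 0) in control, 6 h and 24 h glands; circles are replicate 1, triangles replicate 2, filled blue the deposited values, open orange the median-of-ratios scaled values, and bars the group means. Nfe2l2 is highest at 6 h (56.1 and 55.3 FPKM as deposited), Keap1, Txnrd1 and Gpx4 are highest at 24 h, and the 24 h libraries of Hmox1 lie far apart (11.1 and 31.8 FPKM).

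Among the inducible NRF2 targets, 0 of 5 passed at 6 h. There 1, higher, had an unadjusted p under 0.05, beside 6.28% of all tested genes in that direction. With the deposited values 2 of 5 rose at 24 h. These were Hmox1 and Txnrd1. Nqo1, Srxn1 and Osgin1 passed in neither comparison with control. Their 24 h counts stand against 21.0% of all tested genes called higher and 4.3% called lower with the deposited values, and 9.35% and 8.31% after median-of-ratios scaling.

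Hmox1 (chr8:75093621-75100589, plus strand) encodes heme oxygenase 1, which breaks heme down to biliverdin, iron and carbon monoxide. It was at 3.96 and 3.97 FPKM in the controls (77 and 74 reads), 6.49 and 7.37 FPKM 6 h after irradiation (124 and 146 reads) and 11.1 and 31.8 FPKM after 24 h. The 3 groups did not overlap and lay in order of time. The log2 difference from control was 0.67 ± 0.42 at 6 h (adjusted p = 0.527) and 2.004 ± 0.42 at 24 h (adjusted p = 0.0192), or 1.76 ± 0.42 after scaling (adjusted p = 0.0380). The spread at 24 h was wide, with a mean of 21.5 ± 14.7 FPKM (SD, n = 2). Without 24 h replicate 2 the difference was 1.28 and the call held, whereas it was lost without control replicate 1 (adjusted p = 0.0773) or 2 (0.0671).

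Macrophages are a known site of heme oxygenase expression. A list of 8 macrophage markers, none at 0 in any library, summed to 175 to 179 FPKM in control, 131 to 163 FPKM at 6 h and 421 to 486 FPKM at 24 h, with the larger 24 h sum in replicate 1, where Hmox1 was lower. Their part in the Hmox1 result was not tested. A list of 6 erythrocyte markers, of which Hba-a1 and Hbb-bt were at 0 in every library, rested on different genes in different columns, since Hba-a2 and Hbb-bs were also at 0 in all control and 6 h libraries and Slc4a1 in both 24 h libraries. It summed to 1.21 FPKM in 24 h replicate 1 and 17.5 FPKM in replicate 2, against 2.39 to 4.43 FPKM in the other 4 libraries. Its part was not tested either.

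Txnrd1, the cytosolic thioredoxin reductase, was at 12.1 and 9.83 FPKM in the controls, 9.76 and 11.6 FPKM 6 h after irradiation and 18.2 and 19.1 FPKM after 24 h. Control and 6 h overlapped and the 24 h libraries lay above both. The 24 h difference from control was 0.72 ± 0.14 with the deposited values (adjusted p = 0.0134), 0.46 ± 0.13 after median-of-ratios scaling (0.0596) and 0.53 within length classes (0.0416). Leaving out 24 h replicate 1 or 2 ended the deposited call, with adjusted p of 0.0831 and 0.0881.

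Srxn1, sulfiredoxin, reduces peroxiredoxins that have been overoxidized. It had the second highest log2 difference among the targets at 6 h, and its values were singled out after they were seen. It was at 6.20 and 6.56 FPKM in the controls (215 and 218 reads), 8.41 and 9.36 FPKM 6 h after irradiation (287 and 331 reads) and 6.67 and 7.87 FPKM after 24 h. The 6 h libraries were the highest, by 0.42 ± 0.12 over control, which did not pass (adjusted p = 0.201), nor did the scaled 0.45 ± 0.12 (adjusted p = 0.17). Against 6 h the 24 h level was -0.26 ± 0.12 with the deposited values (adjusted p = 0.155) and fell by 0.53 after scaling (adjusted p = 0.0276).

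Osgin1, an oxidative stress induced growth inhibitor, lay between 10.2 and 13.1 FPKM in control and 6 h glands and at 21.5 and 14.7 FPKM at 24 h, without passing (0.58 ± 0.20, adjusted p = 0.0782, or 0.32 ± 0.19 after scaling, adjusted p = 0.297). Nqo1, a quinone reductase often read as a marker of NRF2 activity, was low in every library, between 0.514 and 1.51 FPKM. It rested on 15 to 29 reads in the control and 6 h libraries, and its differences from control of -0.26 ± 0.24 at 6 h and -0.30 ± 0.24 at 24 h did not pass (adjusted p = 0.681 and 0.399). Scaled, they were -0.26 and -0.43 (adjusted p = 0.679 and 0.261).

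None of the tested genes of glutathione supply passed. Gclc and Gclm, the catalytic and modifier subunits of the enzyme that limits glutathione synthesis, Gss, which completes it, and Gsr, which reduces oxidized glutathione, gave 0 calls in 4 tested genes at 6 h and at 24 h by limma, and none had an unadjusted p under 0.05 with the deposited values (at 24 h 32.8% of all tested genes did as higher and 6.69% as lower). Their log2 differences from control ran from -0.08 to 0.21 at 6 h and from -0.22 to 0.10 at 24 h. Gclc was at 14.3 and 14.4 FPKM in control and 14.9 and 13.7 FPKM at 24 h. After median-of-ratios scaling the 4 genes ran from -0.47 to -0.14 at 24 h and again none passed.

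Slc7a11, the cystine transporter that feeds glutathione synthesis, had 1 read in 1 library and 0 in the other, in control as well as at 6 h. At 24 h it was listed at 0.0492 and 0.926 FPKM, so the higher value was in replicate 2 alone. It was under the filter, and no fold change is given, since the earlier libraries were at or under 1 read and the 24 h depth is unknown.

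Of the genes that supply NADPH, the reductant behind both peroxide systems, 0 of 3 passed with the deposited values in any comparison. At 6 h 1, lower, had an unadjusted p under 0.05, beside 8.49% of all tested genes in that direction. The same gene did at 24 h, beside 6.69%. This was G6pdx, glucose-6-phosphate dehydrogenase, which opens the pentose phosphate pathway. It was at 33.2 and 24.6 FPKM in the controls, 18.8 and 20.4 FPKM 6 h after irradiation and 21.4 and 22.2 FPKM after 24 h, and both control libraries lay above all irradiated ones. The difference from control was -0.53 ± 0.15 at 6 h (adjusted p = 0.200), and -0.50 ± 0.15 after scaling (adjusted p = 0.207). At 24 h it was -0.38 ± 0.15 with the deposited values (adjusted p = 0.116), -0.64 ± 0.15 after scaling (adjusted p = 0.0336) and -0.56 within length classes (adjusted p = 0.0464). Pgd, the next dehydrogenase of the pathway, stayed between 31.8 and 36.9 FPKM in all 6 libraries.

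Me1, malic enzyme, varied more within groups than between them. It was at 3.22 and 19.0 FPKM in the controls, 4.36 and 8.91 FPKM 6 h after irradiation and 5.29 and 5.56 FPKM after 24 h. Gpx3, the secreted glutathione peroxidase, and Sod3, the extracellular superoxide dismutase, did likewise. Gpx3 was at 9.88 and 43.3 FPKM in the controls, 10.3 and 30.0 FPKM 6 h after irradiation and 58.7 and 24.7 FPKM after 24 h. Sod3 was at 1.07 and 4.96, 0.968 and 2.60, and 1.81 and 5.00 FPKM in the same order. None of these 3 passed in any comparison, and the standard errors of their log2 differences were 0.60 to 0.79, against 0.42 or less for the others.

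Malic enzyme is abundant in fat. A list of 6 adipocyte markers summed to 8.86 FPKM in control replicate 1 against 175 FPKM in replicate 2, to 13.2 against 140 FPKM after 6 h, and to 185 against 120 FPKM after 24 h, and of the 6 only Lep was at 0, in 6 h replicate 1. The order of the 6 libraries by this sum was the same as their order by Gpx3. Me1 followed it in control and at 6 h but not at 24 h, and Sod3 was higher in replicate 2 of every group, as the parotid sums were. The part of these markers was not tested. The 3 genes and the pattern were picked out after their values were seen.

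**Figure D2:**
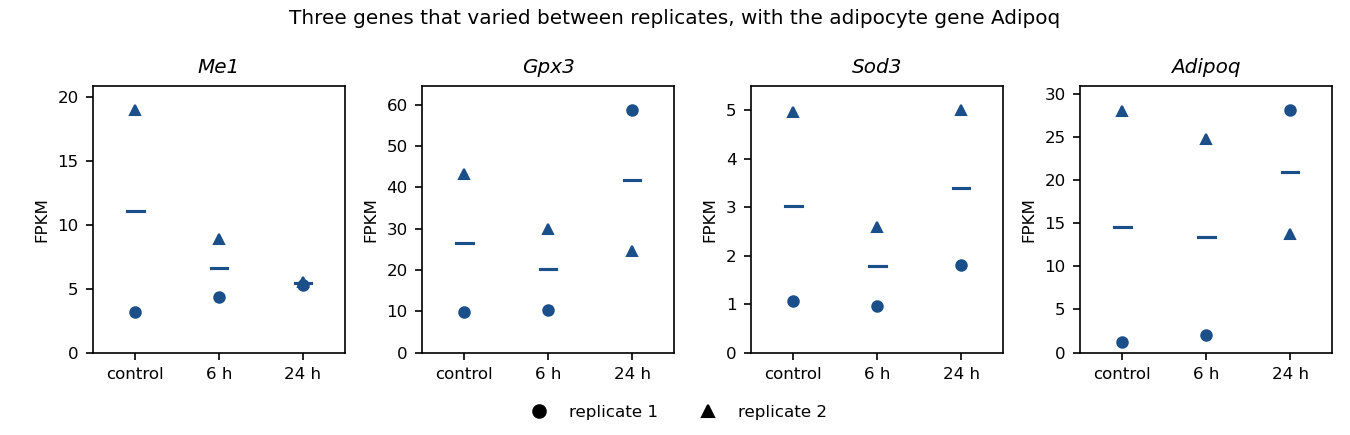
FPKM of Me1, Gpx3, Sod3 and the adipocyte gene Adipoq in each library (vertical axes, FPKM, starting at 0), deposited values; circles are replicate 1, triangles replicate 2 and bars the group means. Replicate 2 exceeds replicate 1 in control and at 6 h for all 4 genes, and at 24 h Gpx3 and Adipoq are higher in replicate 1 (58.7 FPKM for Gpx3).

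In the thioredoxin system, the cytosolic Txn1 stayed between 45.7 and 61.3 FPKM in all libraries and passed nowhere. Txn2, the mitochondrial thioredoxin, was at 53.7 and 47.0 FPKM in the controls, 33.5 and 36.5 FPKM 6 h after irradiation and 58.4 and 55.7 FPKM after 24 h. The 6 h libraries were the lowest and the 24 h libraries the highest. The 6 h difference from control, -0.51 ± 0.11, did not pass (adjusted p = 0.116), nor did the scaled -0.49 ± 0.10 (adjusted p = 0.110). From 6 h to 24 h Txn2 rose by 0.69 ± 0.11 (adjusted p = 0.00602), or 0.39 ± 0.10 after scaling (adjusted p = 0.0410). Without 24 h replicate 1 the adjusted p of the deposited call was 0.0526.

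The peroxiredoxins, which reduce hydrogen peroxide with electrons from thioredoxin or, for Prdx6, from glutathione, gave 0 calls of 6 at 6 h. There 1 higher and 1 lower had an unadjusted p under 0.05, beside 6.28% and 8.49% of all tested genes. At 24 h 6 of 6 were called higher than control with the deposited values, beside 21.0% of all tested genes. After median-of-ratios scaling 0 of 6 were, beside 9.35%, and 1 (beside 16.4% of all tested genes in this direction) had an unadjusted p under 0.05. Prdx1, Prdx2 and Prdx5 turned slightly negative under quantile normalization, as did Prdx2 and Prdx5 within length classes. The deposited log2 differences ran from 0.39 to 0.60 with a median of 0.46, the scaled ones from 0.12 to 0.34. For all tested genes the median was 0.20 and -0.03. The summed FPKM of the 6 genes was 437 and 464 in the controls, 413 and 455 after 6 h and 625 and 629 after 24 h, and after scaling 462 and 489, 452 and 480, and 541 and 551.

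Prdx1, an abundant cytosolic member and an NRF2 target, was at 127 and 140 FPKM in the controls, 112 and 138 FPKM 6 h after irradiation and 200 and 189 FPKM after 24 h. Control and 6 h overlapped and 24 h lay above both. The deposited 24 h difference of 0.54 ± 0.13 (adjusted p = 0.0294) became 0.27 ± 0.12 after scaling (0.172), and it was lost without either control library (0.118 and 0.0590) or either 24 h library (0.151 and 0.105).

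Prdx3, a mitochondrial enzyme, and Prdx5, found in mitochondria and other compartments, were the peroxiredoxins with the lowest 6 h levels relative to control. Prdx3 was at 53.7 and 55.8 FPKM in the controls, 46.8 and 48.9 FPKM 6 h after irradiation and 80.2 and 73.9 FPKM after 24 h. Prdx5 was at 118 and 123 FPKM, 89.5 and 96.2 FPKM, and 156 and 170 FPKM in the same groups. In both genes the groups did not overlap and 6 h was the lowest, by -0.19 ± 0.09 for Prdx3 (adjusted p = 0.413) and -0.37 ± 0.10 for Prdx5 (adjusted p = 0.183), neither of which passed. From 6 h to 24 h Prdx3 rose by 0.68 ± 0.09 (adjusted p = 0.00420) and 0.38 ± 0.09 after scaling (0.0302). Prdx5 rose by 0.81 ± 0.10 (adjusted p = 0.00273) and 0.51 ± 0.09 after scaling (0.0160), though within length classes it gave 0.32 and did not pass (0.0611). These calls between 6 h and 24 h held without each single library. Against control, the deposited call of Prdx3 was lost without control replicate 1 (0.0625) or 24 h replicate 1 (0.0804), and that of Prdx5 without either control (0.0951 and 0.0612) or either 24 h library (0.0679 and 0.115).

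Prdx2 lay between 90.2 and 130 FPKM, Prdx4, which works in the endoplasmic reticulum, between 10.7 and 19.6 FPKM, and Prdx6 between 35.3 and 49.7 FPKM. Prdx6 was higher at 6 h by 0.35 ± 0.10 without passing (adjusted p = 0.213), and by 0.38 ± 0.09 after scaling (adjusted p = 0.162). Its 24 h difference from control was 0.39 ± 0.10 (adjusted p = 0.0416), or 0.12 ± 0.09 after scaling (adjusted p = 0.436). The 24 h calls of these 3 genes against control were each lost without 1 or more libraries, 24 h replicates 1 and 2 among them for all 3. That of Prdx6 was lost without any 1 of the 6 libraries. The adjusted p then ranged up to 0.110 for Prdx2, 0.184 for Prdx4 and 0.179 for Prdx6.

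**Figure D3:**
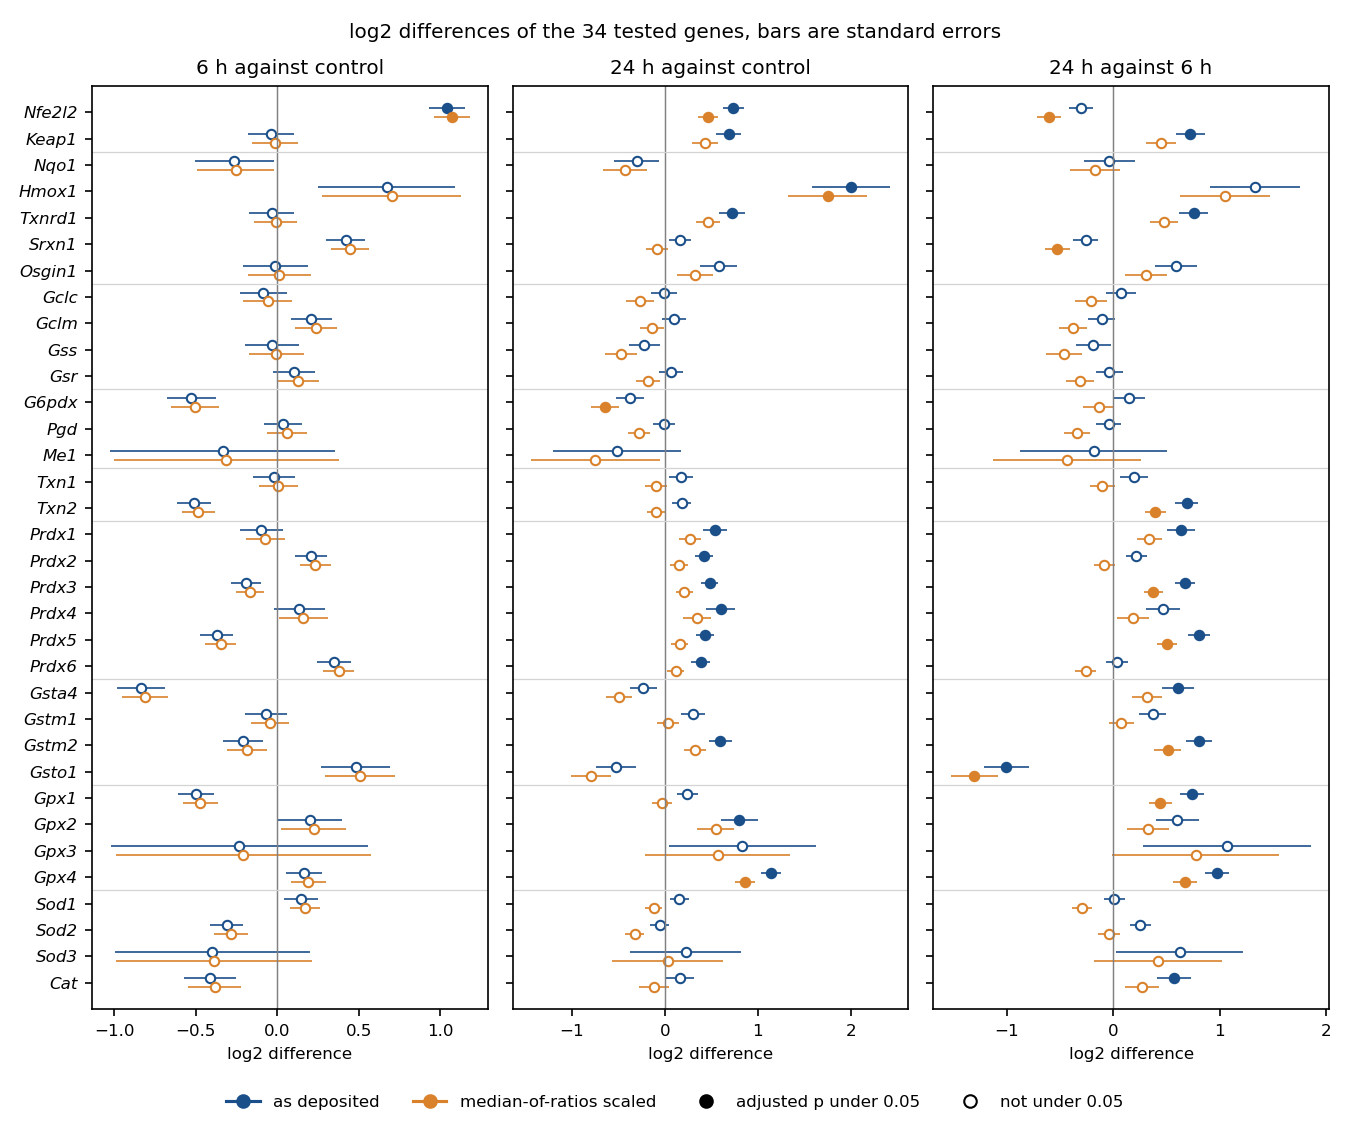
log2 differences (horizontal axes) of the 34 tested genes, in rows by role, in panels for 6 h and 24 h relative to control and for 24 h relative to 6 h; blue is as deposited, orange median-of-ratios scaled, bars are standard errors and filled points have an adjusted p under 0.05. At 6 h Nfe2l2 is the single filled gene (1.04 as deposited). At 24 h relative to control most orange points lie to the left of the blue ones, and all 6 peroxiredoxins go from filled to open. In the panel for 24 h relative to 6 h, Prdx3 and Prdx5 stay filled.

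The glutathione transferases, which attach glutathione to electrophiles, gave 0 of 4 calls at 6 h and 1 of 4 at 24 h against control, where 21.0% of all tested genes were called higher. After scaling the 24 h count was 0 of 4, beside 9.35% called higher and 8.31% called lower. Of the 4 scaled differences, 1 higher and 2 lower had an unadjusted p under 0.05. In all 11674 tested genes 1914 and 2001 had such a p in these directions. Gsta4, which takes up lipid peroxidation products such as 4-hydroxynonenal, was at 29.2 and 23.5 FPKM in the controls, 13.2 and 15.4 FPKM 6 h after irradiation and 24.0 and 20.5 FPKM after 24 h. The 6 h libraries were the lowest. The 6 h difference, -0.84 ± 0.15, was the most negative of the 34 genes and did not pass (adjusted p = 0.0791), nor did the scaled -0.81 ± 0.14 (adjusted p = 0.0763). At 24 h the difference from control was -0.23 ± 0.15 with the deposited values (adjusted p = 0.297) and -0.49 ± 0.14 after scaling (adjusted p = 0.0604), and within length classes Gsta4 was called lower, at -0.66 ± 0.14 (adjusted p = 0.0265). From 6 h to 24 h Gsta4 rose by 0.61 ± 0.15 with the deposited values (adjusted p = 0.0285), which scaling took to 0.32 ± 0.14 (adjusted p = 0.164). The deposited call was lost without any 1 of the 6 h or 24 h libraries, with adjusted p of 0.0616 to 0.166.

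Gstm2 was at 33.1 and 40.1 FPKM in the controls, 32.4 and 30.3 FPKM 6 h after irradiation and 58.4 and 52.8 FPKM after 24 h, with both 24 h libraries the highest. It rose by 0.60 ± 0.12 against control (adjusted p = 0.0181) and by 0.81 ± 0.12 against 6 h (adjusted p = 0.00587). Scaled, these were 0.33 ± 0.12 (adjusted p = 0.123) and 0.51 ± 0.12 (adjusted p = 0.0347). The call against control was lost without control replicate 1 (0.0685) and without 24 h replicates 1 and 2 (0.117 and 0.0673), and that against 6 h without 24 h replicate 1 (0.0554). Gstm1 ranged from 46.3 to 69.4 FPKM and passed nowhere. Gstm1 and Gstm2 are neighbours on chromosome 3 in a family of similar sequences, and how reads shared between them were assigned is not given in the sources used here.

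Gsto1, an omega class transferase, moved the other way from most of the list and was singled out for that. It was at 165 and 106 FPKM in the controls, 187 and 183 FPKM 6 h after irradiation and 83.1 and 102 FPKM after 24 h. The 3 groups did not overlap, with 6 h the highest and 24 h the lowest. From 6 h to 24 h it fell by 1.01 ± 0.21 (adjusted p = 0.0179), and by 1.31 ± 0.22 after scaling (adjusted p = 0.0108). It was the 1 gene of the list called lower in that comparison with the deposited values, and the call was lost without any 1 of the 6 h or 24 h libraries (adjusted p of 0.0640 to 0.130).

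Glutathione peroxidases gave 0 of 4 calls at 6 h (1, lower, with an unadjusted p under 0.05, as 8.49% of all tested genes were). At 24 h 2 of 4 rose with the deposited values and 1 of 4 after scaling, beside 21.0% and 9.35%. Gpx4 (chr10:80047166-80056439, plus strand), which reduces lipid peroxides in membranes and guards against ferroptosis, was at 98.8 and 99.2 FPKM in the controls, 115 and 107 FPKM 6 h after irradiation and 236 and 204 FPKM after 24 h. The 24 h libraries were the highest by a wide margin. Gpx4 rose by 1.14 ± 0.11 at 24 h (adjusted p = 0.00116) and by 0.87 ± 0.11 after scaling (adjusted p = 0.00414), and the call held without each single library (adjusted p of 0.00456 to 0.0140). Within length classes it was 0.94 (adjusted p = 0.00430). With equal FPKM sums the adjusted p was 0.184. Its length behind the FPKM was 1534 bases, a class in which all tested genes had a median of 0.18.

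Gpx1, the cytosolic and mitochondrial enzyme, had the highest mean of the list, 235 FPKM over the 6 libraries. It was at 257 and 230 FPKM in the controls, 171 and 172 FPKM 6 h after irradiation and 305 and 272 FPKM after 24 h, and 6 h was the lowest group. The 6 h difference of -0.50 ± 0.11 did not pass (adjusted p = 0.135), nor did the scaled -0.47 ± 0.11 (adjusted p = 0.133). From 6 h to 24 h it rose by 0.74 ± 0.11 (adjusted p = 0.00556), and by 0.44 ± 0.11 after scaling (adjusted p = 0.0355), but quantile normalization gave 0.06 and ended the call (adjusted p = 0.805). Gpx2, best known from the intestine, lay between 5.47 and 8.48 FPKM in control and 6 h glands and at 11.5 and 13.9 FPKM at 24 h. Its deposited 24 h call (0.80 ± 0.20, adjusted p = 0.0319) did not hold after scaling (0.55 ± 0.20, adjusted p = 0.110) and was lost without control replicate 1 (0.0891) or either 6 h (0.0626 and 0.0620) or 24 h library (0.111 and 0.171).

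The superoxide dismutases and catalase gave 0 of 4 calls against control at both times by limma. At 6 h 2 of them, Sod2 and Cat, were lower with an unadjusted p under 0.05, beside 8.49% of all tested genes. At 24 h 0 had such a p with the deposited values, beside 32.8% of all tested genes as higher and 6.69% as lower. Sod1, the cytosolic dismutase, lay between 178 and 210 FPKM. Its 24 h difference from 6 h was 0.01 ± 0.10 with the deposited values (adjusted p = 0.951) and -0.29 ± 0.09 after scaling (adjusted p = 0.0738), and within length classes it was called lower, at -0.48 ± 0.09 (adjusted p = 0.0186). Quantile normalization also called it lower at 24 h, against control and against 6 h. The mitochondrial Sod2 was at 40.2 and 35.4 FPKM in control and 30.8 and 29.7 FPKM at 6 h, a difference of -0.31 ± 0.10 that did not pass (adjusted p = 0.248), and -0.28 ± 0.10 after scaling (adjusted p = 0.279). At 24 h it was -0.06 ± 0.10 with the deposited values (adjusted p = 0.723) and -0.32 ± 0.10 scaled (adjusted p = 0.0798).

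Cat, the peroxisomal catalase, was at 85.6 and 61.9 FPKM in the controls, 54.6 and 54.4 FPKM 6 h after irradiation and 78.5 and 84.3 FPKM after 24 h. The 6 h libraries were the lowest and the 24 h libraries fell inside the control range. It rose from 6 h to 24 h by 0.57 ± 0.16 (adjusted p = 0.0419), or 0.27 ± 0.16 after scaling (adjusted p = 0.275), and the deposited call was lost without any 1 of the 6 h or 24 h libraries (0.138 to 0.180). A list of 6 duct markers summed to 264 and 192 FPKM in the controls, 183 and 180 FPKM 6 h after irradiation and 273 and 276 FPKM after 24 h, which placed the libraries almost as Cat did. Its part was not tested.

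Across the list, 13 of 34 genes were called higher and 0 lower at 24 h against control with the deposited values. After median-of-ratios scaling 3 were higher (Gpx4, Hmox1 and Nfe2l2) and 1 lower (G6pdx), and within length classes 4 were higher (those 3 and Txnrd1) and 2 lower (G6pdx and Gsta4), beside 8.65% and 7.38% of all tested genes. Read against the shares of all tested genes, 13 of 34 stood beside 21.0%, and 3 of 34 beside 9.35%. Of the 13, Hmox1 alone was called with equal FPKM sums, and Gpx4 alone with control replicate 1 and 24 h replicate 2 left out together. Equal FPKM sums bring the 24 h values of Hmox1 (11.1 and 31.8 FPKM as deposited) closer together. They set those of Gpx4 (236 and 204 FPKM) further apart. Groups did not overlap in the higher direction for 20 of 34 genes, where 53.1% of all tested genes did the same, and in the lower direction for 2, where 13.3% did. After scaling these were 13 higher and 10 lower, beside 29.0% and 33.5% of all tested genes. The median of the 34 was 0.23 with the deposited and -0.00 with the scaled values, close to the 0.20 and -0.03 of all tested genes. The summed FPKM of all 35 genes was 1685 and 1643 in the controls, 1564 and 1654 after 6 h and 2130 and 2061 after 24 h. After scaling the sums lay between 1711 and 1843 in all 6 libraries.

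**Figure D4:**
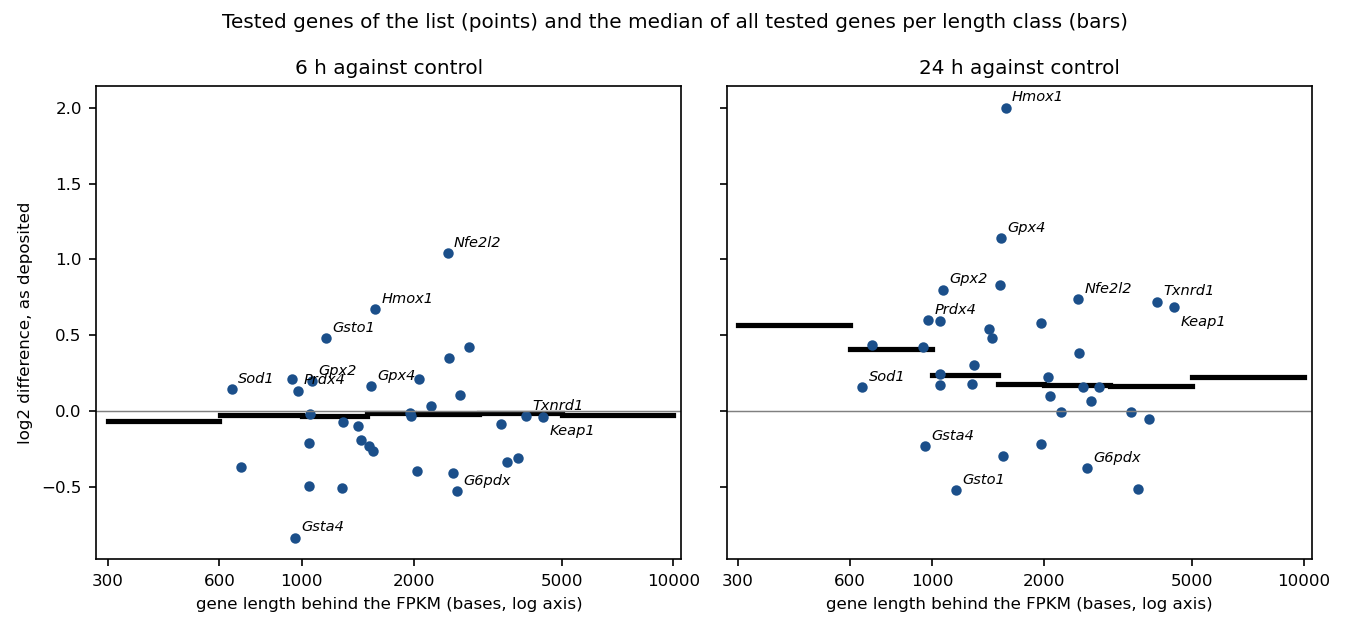
log2 difference with the deposited values (vertical axis) of the tested genes of the list against the gene length recovered from the FPKM (horizontal log axis, bases), at 6 h and at 24 h against control; points are genes and black bars the median of all tested genes in each length class. At 6 h the bars lie near 0, and at 24 h they run from 0.57 in the shortest class to 0.16 to 0.23 above 1500 bases, with Hmox1 and Gpx4 well above them.

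From 6 h to 24 h, 11 of 34 genes were called higher and 1 lower with the deposited values, beside 23.4% and 4.31% of all tested genes. After scaling 6 were higher (Gpx1, Gpx4, Gstm2, Prdx3, Prdx5 and Txn2) and 3 lower (Gsto1, Nfe2l2 and Srxn1), beside 10.7% and 9.47%. Under quantile normalization 2 of the 12 deposited calls remained, Gsto1 and Txnrd1. The 2 comparisons with 24 h share their 24 h libraries, and those with control share the controls, so each is given with its own values only.

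Beyond the 35 genes, 91 others of the same pathways were listed by role, of which 79 were tested. At 6 h 1 rose and 1 fell, beside 0.694% and 0.317% of all tested genes. Both were in the list of glutathione transferases and phase II enzymes. Ephx1, the microsomal epoxide hydrolase, was at 48.1 and 42.4 FPKM in the controls, 234 and 235 FPKM 6 h after irradiation and 268 and 256 FPKM after 24 h, a rise of 2.35 ± 0.10 at 6 h (adjusted p = 0.000702) and 2.51 ± 0.10 at 24 h (adjusted p = 4.48e-05). After scaling the rise was 2.38 at 6 h and 2.24 at 24 h. Gstt1, a theta class transferase, fell by 0.85 ± 0.11 at 6 h (adjusted p = 0.0290), from 8.44 and 9.87 FPKM to 4.69 and 4.52 FPKM, and stood at 20.5 and 20.0 FPKM at 24 h. Its scaled difference at 6 h was -0.84. The other 12 regulators of the pathway, such as Bach1, which competes with NRF2 for the same elements, gave 0 calls at 6 h by limma. Of these 2, both higher, had an unadjusted p under 0.05, beside 6.28% of all tested genes in that direction. At 24 h against control 1 of the 12 regulators was called higher and 2 lower with the deposited values, beside 21.0% and 4.3%. After scaling 0 were called higher and 3 lower, beside 9.35% and 8.31% of all tested genes.

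At 24 h against control 31 of the 79 rose and 2 fell with the deposited values, and 15 rose and 6 fell after scaling. The shares of all tested genes were 21.0% and 4.3% with the deposited values, and 9.35% and 8.31% after scaling. Fth1, the ferritin heavy chain that stores iron, was at 294 and 307 FPKM in the controls, 287 and 304 FPKM 6 h after irradiation and 749 and 916 FPKM after 24 h. It rose by 1.46 ± 0.13 at 24 h (adjusted p = 0.000901), and by 1.18 ± 0.13 after scaling (adjusted p = 0.00233). The 4 of 5 heme and iron genes that rose with the deposited values included the biliverdin reductases Blvra and Blvrb, and 3 of 5 rose after scaling and 2 of 5 within length classes (beside 21.0%, 9.35% and 8.65% of all tested genes). Glrx3, a glutaredoxin, was at 0.256 to 0.674 FPKM in the 4 control and 6 h libraries and at 15.4 and 15.8 FPKM at 24 h, a step that coincides with the change in the form of the values.

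Of 13 listed oxidant producers and peroxidases 9 were tested, and 5 rose at 24 h with the deposited values and 4 after scaling, beside 21.0% and 9.35% of all tested genes. Cyba, Cybb and Ncf1, subunits of the phagocyte NADPH oxidase, were among the 5. Cyba was at 11.4 and 14.8 FPKM in the controls, 21.9 and 25.0 FPKM 6 h after irradiation and 29.2 and 48.5 FPKM after 24 h, and rose by 1.46 ± 0.25 (adjusted p = 0.00895), or 1.20 ± 0.25 after scaling (adjusted p = 0.0227). Ncf1 rose by 1.01 ± 0.14 (adjusted p = 0.00473) and by 0.79 ± 0.14 after scaling (adjusted p = 0.0139). The macrophage marker sums given beside Hmox1 were also highest at 24 h, with the lower of the 24 h sums in replicate 2, where Cyba was higher. A list of 6 neutrophil markers, of which Ngp was at 0 in every library, summed to 0.532 and 1.99 FPKM in the controls, 0.845 and 6.82 FPKM after 6 h and 4.61 and 15.8 FPKM after 24 h, and was higher in replicate 2 of each group, as Cyba was. The part of both lists was not tested.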

How the data were processed

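Gene expression was measured by RNA sequencing of total RNA in 6 libraries, 2 in each of 3 groups. Per the submitters' processing notes, TopHat2 2.1.0, Cufflinks 2.2.1 and the mouse build mm10 were used, and the authors deposited FPKM per gene for all libraries in 1 table. Of 24421 entries, 27 with a date number for a symbol were left out. Whole reads and lengths were recovered from the control and 6 h FPKM for 11593 of the 11674 tested genes (tolerance 0.0001 reads). The length is the shortest that gives whole reads in all 4 libraries.

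Values were taken as log2(FPKM + 1), which understates changes of low genes. Genes averaging 1 FPKM or more across the 6 libraries were fitted with limma 3.58.1 in R 4.3.3 (1 mean per group, all 3 groups, empirical Bayes moderation with a trend, 3 residual degrees of freedom). Two-sided p-values were adjusted by Benjamini-Hochberg over all tested genes of a comparison, with a threshold of 0.05. Fits were tested on simulated data. Median-of-ratios factors came from 14133 genes. Positions are from GENCODE for GRCm38 and promoter sequences from RefSeq.

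By rule, values in every library are given for Nfe2l2, Keap1, the 12 members with the smallest p, the highest member and those under the filter. Other members described singly, and Blvra, Blvrb, Cyba, Cybb and Ncf1 of the other pathway genes, were picked after their values were seen; otherwise the 3 called pathway genes with the smallest p per comparison are named. Members and lists were chosen with earlier results of these data known. Values after ± are SE for log2 differences and SD for FPKM.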

Additional observations from a re-analysis of the deposited data

Results flagged for a closer look

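The differences between 24 h and 6 h were tested directly, and 12 of 34 genes passed with the deposited values, 11 higher and 1 lower. Of all tested genes 23.4% were called higher and 4.31% lower. For the 12 the deposited difference from control was therefore not the same at the 2 times. All 12 rest on the 24 h columns, whose values are of another form than those of the 6 h columns. The log2 differences (24 h against 6 h) were 0.72 for Keap1, 0.76 for Txnrd1, 0.69 for Txn2, 0.64 for Prdx1, 0.68 for Prdx3 and 0.81 for Prdx5. They were 0.61 for Gsta4, 0.81 for Gstm2, -1.01 for Gsto1, 0.74 for Gpx1, 0.98 for Gpx4 and 0.57 for Cat. After median-of-ratios scaling 7 of the 12 still passed (Txn2, Prdx3, Prdx5, Gstm2, Gsto1, Gpx1 and Gpx4).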

How the results depend on the processing

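At 6 h the single call, Nfe2l2, remained under 8 settings (median-of-ratios scaling, quantile normalization, a pseudocount of 0.1 FPKM, no filter, a filter of 5 FPKM, no trend, the replicate block and the added length classes). The count was 0 with equal FPKM sums, with only the 2 groups compared, without the pair of control replicate 1 and 24 h replicate 2 together, and with each library left out in turn (0 to 0). Leaving out both libraries also left 0 calls among all tested genes, of which 1270 had an unadjusted p under 0.05. At 24 h against control the 13 calls became 4 after median-of-ratios scaling, 7 after quantile normalization (4 higher, 3 lower), 1 with equal FPKM sums, 6 within length classes, 1 without both libraries, and 3 to 11 with 1 library left out. At 24 h against 6 h the 12 calls became 5 after quantile normalization (1 higher, 4 lower), 1 with equal FPKM sums, 5 without both libraries and 5 to 13 with 1 library left out. Against control, Prdx1 was at -0.045 and Prdx5 at -0.10 after quantile normalization, Prdx2 at -0.035 there and -0.024 within length classes, and Prdx5 at -0.015 within length classes. Calls among all 11674 tested genes changed as well, at 24 h against control from 2953 to 2061 after median-of-ratios scaling. They were 1929 after quantile normalization and 895 with equal FPKM sums. At 24 h against 6 h the 3237 calls among all tested genes became 2195 after quantile normalization and 1024 with equal FPKM sums. The cause of these changes was not tested.

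Replicate numbers are shared between groups, and same-numbered libraries deviated together (r = 0.47, 0.31 and 0.17 for the 3 pairs of groups). The labels name no shared animal or batch. Parotid and neutrophil marker sums, for example, were higher in replicate 2 of every group. What else same-numbered libraries share is unknown, and the part of these sums was not tested. With the replicate block the counts of calls were 1, 13 and 17. At 24 h against control it lost Prdx6 (adjusted p = 0.0583) and gained Osgin1, and at 24 h against 6 h it kept the 12 and gained Gpx2, Gstm1, Hmox1, Osgin1 and Prdx4. Depth limits Slc7a11 and Nqo1 in the control and 6 h libraries, and it is unknown at 24 h. The share of listed genes with a match in a promoter window was 31.0% with the core and 6.9% with the full form.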
